A study of Homo sapiens with 14 samples.

Results

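The 43 genes described here encode the machinery that shortens, decaps and destroys RNA in human cells: the exosome with its nucleases and adaptors, the cap-binding proteins that hand transcripts to it, the factors of nonsense-mediated decay (NMD), the decapping and 5'-to-3' decay enzymes, and the deadenylases. They were chosen by gene symbol, from the known membership of these complexes, and all 43 occur in the deposited table of adenosines with N6-methyladenosine (m6A). They are 43 of the 13744 genes in that table and carry 1540 of its 407343 sites, of which 498 lie in the DRACH motif (D is A, G or T, R is A or G, H is A, C or T). SMG1 had the most listed sites, 106, and EXOSC8 the fewest, 4. The samples are 7 groups of 2 libraries of polyadenylated RNA from cell lines. There are 4 ovarian lines (SKOV3, EFO21, COV644, CAOV3), the oesophageal line OE21 and A549, which the labels call a lung carcinoma; each was kept for 24 h in DMSO, the vehicle, and CAOV3 was also kept for 24 h in 1 uM STM3675, a compound the labels give by code name only, in a series whose title concerns inhibition of METTL3. Each group is a single cell line, and whether its 2 libraries came from separate cultures is not given in the sources used here, so that p-values measure only the spread between these libraries.

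m6A is written into nascent transcripts by a complex of METTL3 and METTL14, mostly at DRACH motifs in long exons and near stop codons. The mark is best known for shortening the life of a transcript: the reader protein YTHDF2 binds it and brings in the CCR4-NOT deadenylase, and decapping, the exosome and the NMD helicase UPF1 act on such RNAs as well. The transcripts of these decay factors are themselves methylated, and their own marks are what was measured.

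The assay was GLORI: adenosine without the mark is deaminated by nitrite in the presence of glyoxal and is sequenced as G, whereas m6A is protected and is sequenced as A. The level of a site is the percent of A among its A and G reads, and its coverage is the sum of both. Libraries held 14047302 to 28663588 reads summed over listed sites, with 50355 to 91505 of them in the 43 genes and a median of 28 to 53.5 reads at their DRACH sites. The median level at listed adenosines outside DRACH was taken as each library's background. It was 3.85% to 4.88% in the COV644 and OE21 libraries, 9.09% in both STM3675 libraries, and 10.6% to 14.3% in the other 8. Such sites were listed for a fraction of at least 0.25 in a DMSO library, and some fell with STM3675. The value is therefore not a pure measure of unconverted reads. Some gene levels lay below it, such as XRN1 with a mean of 5.32% with STM3675. PAX8, a transcription factor of the Mullerian epithelium, had a mean coverage of 80.2 CPM (reads per 1000000, scaled between libraries) in CAOV3, 245 in EFO21 and 363 in SKOV3 but 22.5 in COV644, near the 22.8 in OE21. It was lowest in A549, at 2.89. The squamous marker TP63 was at 290 in OE21 and at most 2.47 elsewhere, and KRT5 was at 4076 in OE21 and at most 48.5 elsewhere. The lung marker NKX2-1 was at 0.109 in A549 but at 19.98 in COV644 and 12.2 in OE21. WT1 was at 8.39 in A549 and at most 1.73 in the other lines. PAX8 thus did not set COV644 apart from OE21, and NKX2-1 did not mark A549. The labels were used as given.

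The most methylated DRACH site of each gene was chosen from the 10 DMSO libraries of the lines other than CAOV3, among sites with at least 20 reads in all 14 libraries. Such a lead site existed in 35 genes. The sequences of 10 of them are shown because their levels carry the comparisons that follow; each is the 5 bases listed for the site, 5' to 3' on the transcript's strand, with the measured adenosine in capitals, and positions are in GRCh38.
EXOSC2 chr9:130703961, plus strand: gaAca
EXOSC3 chr9:37780669, minus strand: ggAct
EXOSC6 chr16:70250952, minus strand: ggAct
ZFC3H1 chr12:71609835, minus strand: ggAct
NCBP2 chr3:196936863, minus strand: ggAca
UPF1 chr19:18867337, plus strand: ggAct
UPF2 chr10:12028927, minus strand: ggAct
SMG8 chr17:59211615, plus strand: tgAct
CNOT6 chr5:180574312, plus strand: ggAct
CNOT8 chr5:154875570, plus strand: agAct

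Of the 35 lead sites, 13 were in GGACT, 8 in AGACT, 4 in GGACA and 3 in TGACT. The last exon held 22 of them, an internal exon 11, a first exon 1 (SMG8) and a single-exon transcript 1 (EXOSC6). In 18 genes the lead site averaged at least 80% over those 5 lines, so most of that transcript's molecules were marked there. The RBM7 lead site, chr11:114407822 in the last exon, ranged from 96.3% to 100% in the 10 libraries, and the SMG8 site from 96.0% to 100%. At the other end, 8 lead sites stayed below 40% in every one of the 10 libraries, those of EXOSC9, NCBP1, SRRT, SMG9, DCP1A, DCP2, EDC4 and CNOT3, and SMG9 read 0.00% to 8.89%, near background. In CAOV3 with DMSO, which the choice did not use, the median over the 35 sites was 88%; with STM3675 it was 10.7%, ranging from 3.70% to 67.6%. The lead site fell in 31 genes, by the quasi-binomial model with limma's moderated dispersion and Benjamini-Hochberg adjustment over all 185923 tested sites. Of the 77040 DRACH sites among them 73.9% fell and 0.048% rose. The lead sites of NCBP1, SRRT, SMG9 and CNOT3 did not pass.

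**Figure D1:**
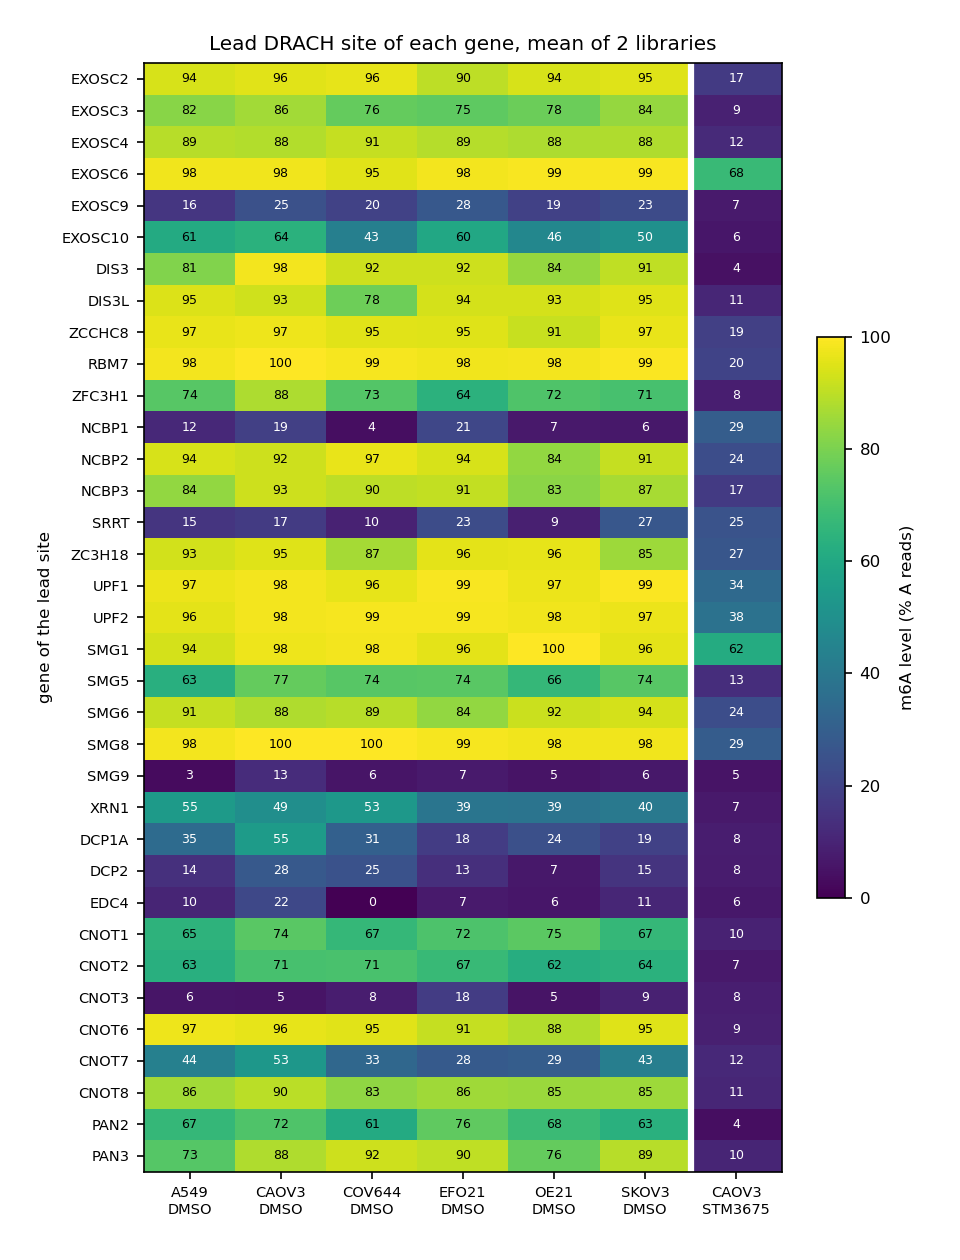
Heat map of the m6A level (percent of A reads, mean of 2 libraries, colour and printed value) of the lead DRACH site in each of 35 genes (rows) for the 6 DMSO lines and CAOV3 with STM3675 (columns). The CAOV3 column has a median of 88% with DMSO and 10.7% with STM3675, where EXOSC6 and SMG1 stay brightest.

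With STM3675, m6A fell on nearly all of these transcripts in CAOV3. Levels were summed over each gene's DRACH sites with at least 20 reads in each of the 4 libraries, which 38 of the 43 genes had. The gene level fell in 36 of the 38, or 94.7%, against 91.1% of 10209 genes in the whole table. It rose in 0 by this model and by limma, with 0 rises at an unadjusted p under 0.05 in either. The median of the 38 gene levels was 48.3% with DMSO and 10.3% with the compound, and the median difference was -39.5 percentage points against -35.3 over all genes. SRRT and CNOT3 did not pass. EXOSC7, EXOSC8, MPHOSPH6, MTREX and UPF3A had no DRACH site at that depth. Over all sites of a gene, where 81.7% of genes in the table fell, UPF3A was called lower (adjusted p = 0.041, same model) and the other 4 did not pass. The 12 UPF3A sites tested all lay outside DRACH. Their summed level averaged 14.7% (SD 3.26) before and 9.54% (SD 1.89) after treatment. CAOV3 background also dropped, from 11% and 11.1% to 9.09%, and its part in the UPF3A call was not tested.

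**Figure D2:**
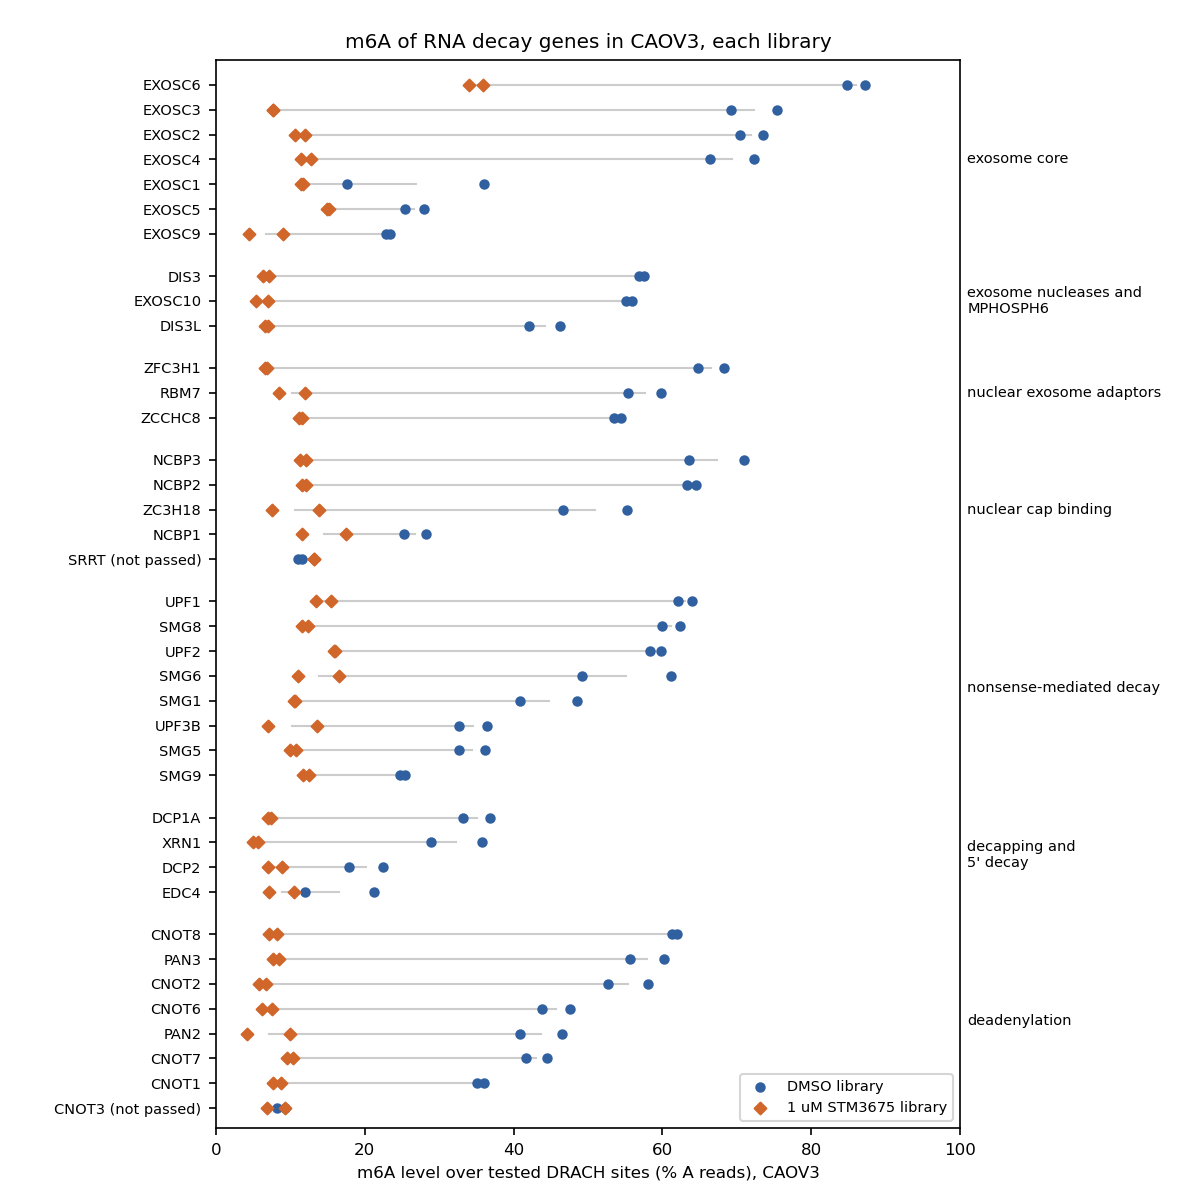
The m6A level over tested DRACH sites (percent of A reads, x axis) of 38 genes grouped by role, with circles for the 2 DMSO libraries and diamonds for the 2 STM3675 libraries of CAOV3, and a grey line between the group means. The diamonds lie left of the circles in the 36 genes that fell; EXOSC6 ends farthest right.

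The exosome core is a ring of RNase PH-like subunits (EXOSC4 to EXOSC9) capped by the RNA-binding subunits EXOSC1, EXOSC2 and EXOSC3. All 7 tested core genes fell, from a median of 69.4% to 11.6%, the highest starting level of any role. EXOSC3 read 75.4% and 69.2% with DMSO and 7.67% and 7.62% with STM3675, a fall by 64.7 points (SE 3.10, adjusted p = 3.5e-16 by the quasi-binomial model). EXOSC2 read 73.5% and 70.5% with DMSO and 12% and 10.6% with the compound (adjusted p = 1.9e-15). In both genes the groups were far apart and the replicates within a few points. EXOSC5, a ring subunit, read 25.4% and 27.9% and then 15.1% and 14.9% (adjusted p = 0.0041 by the same model). The treated levels stayed above the 9.09% background of those libraries. EXOSC1 read 36.1% and 17.6% with DMSO and 11.6% and 11.5% with STM3675 (adjusted p = 0.041). Its DMSO libraries differed from each other more than the second of them did from the treated ones, and without the first DMSO library the difference was -6.02 points (adjusted p = 0.32). The 3 genes EXOSC4, EXOSC6 and EXOSC9 also fell.

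The 3 tested nucleases of the exosome fell from a median of 55.5% to 6.74%. DIS3, the processive exonuclease at the bottom of the ring, read 57.5% and 56.8% with DMSO and 7.14% and 6.33% with STM3675. EXOSC10, the nuclear nuclease at the top, read 55.9% and 55.2% and then 7.02% and 5.35%. DIS3L, the cytoplasmic relative of DIS3, read 42.1% and 46.3% and then 6.97% and 6.61%. In all 3 the groups were far apart.

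Nuclear RNA reaches the exosome through the helicase MTREX, which works with ZCCHC8 and the RNA-binding RBM7 in the NEXT complex, or with the zinc-finger protein ZFC3H1 in the PAXT connection. ZFC3H1 read 64.8% and 68.2% with DMSO and 6.54% and 6.91% with STM3675, so that 0.101 of its level was left (adjusted p = 9.5e-18). RBM7 read 55.4% and 59.8% and then 8.52% and 12%, and ZCCHC8 read 54.5% and 53.5% and then 11.2% and 11.6%. All 3 fell, and so did 25 of the 33 DRACH sites tested in them (75.8%, near the 73.9% of all DRACH sites).

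Of the 5 cap-binding genes 4 fell, and their starting levels ran from that of NCBP3 down to background in SRRT. NCBP3, an alternative cap-binding partner, read 71.0% and 63.6% with DMSO and 11.3% and 12.1% with STM3675, and NCBP2, the subunit that contacts the cap, read 63.3% and 64.5% and then 11.5% and 12%. ZC3H18, which links the cap complex to NEXT, read 55.2% and 46.6% and then 7.52% and 13.8%. These 3 fell clearly. NCBP1, the large cap-binding subunit, read 28.2% and 25.3% and then 11.5% and 17.5% (adjusted p = 0.047), and the call was lost without either STM3675 library (-9.27 points, adjusted p = 0.34, and -15.2 points, adjusted p = 0.074) or the first DMSO library (adjusted p = 0.075). SRRT, the ARS2 adaptor, read 11.5% and 11.1% with DMSO and 13.2% in both treated libraries (adjusted p = 0.53 by the quasi-binomial model). With DMSO it lay at the background level, and with STM3675 somewhat above the 9.09% background of those libraries.

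All 8 tested NMD genes fell, from a median of 49.9% to 12%, and 88 of their 117 DRACH sites fell (75.2%, near the 73.9% of all DRACH sites). UPF1, the helicase at the centre of the pathway, read 62.1% and 64.0% with DMSO and 15.5% and 13.4% with STM3675. UPF2, which bridges UPF1 to the exon junction complex, read 58.3% and 59.8% and then 15.9% in both libraries (adjusted p = 6.0e-19). SMG8, a subunit that restrains the SMG1 kinase, read 59.9% and 62.4% and then 12.3% and 11.6%. SMG5, which helps recruit decay enzymes to phosphorylated UPF1, started lower, at 36.1% and 32.7%, and read 9.97% and 10.7% with the compound. SMG9, the partner of SMG8, went from 24.7% and 25.4% to 11.7% and 12.5% (adjusted p = 0.0016). Of the remainder, SMG1 and UPF3B fell, and so did the endonuclease SMG6, at 49.2% and 61.2% with DMSO and 16.6% and 11% with STM3675. SMG1 has near-identical copies elsewhere in the genome, so that its reads are uncertain in origin.

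The decapping genes had the lowest median of any role, 26.2%, and fell to 7.55%. Of their 30 tested DRACH sites 15 fell (50%), the lowest share of any role and below the 73.9% of all DRACH sites. DCP1A, the activator of the decapping enzyme, read 33.2% and 36.8% with DMSO and 7.34% and 7.03% with STM3675, and XRN1, the 5'-to-3' exonuclease, read 28.9% and 35.7% and then 5.69% and 4.95%. DCP2, the decapping enzyme, read 22.4% and 17.8% and then 6.95% and 8.89%. EDC4, a scaffold of the decapping complex, read 21.2% and 12% and then 7.11% and 10.5% (adjusted p = 0.027). The EDC4 call was lost without the first DMSO library (-3.21 points, adjusted p = 0.32) and without either STM3675 library (-6.07 points, adjusted p = 0.25, and -9.49 points, adjusted p = 0.062).

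Among the deadenylation genes 7 of 8 fell, from a median of 44.7% to 7.85% over the role. CNOT8, a catalytic subunit of CCR4-NOT, read 61.9% and 61.3% with DMSO and 7.09% and 8.2% with STM3675. PAN3, which holds the PAN2 deadenylase on the tail, read 60.2% and 55.7% and then 8.43% and 7.70%. CNOT1, the scaffold of CCR4-NOT, read 35.1% and 36.0% and then 7.62% and 8.77%. CNOT3, a subunit of its regulatory module, read 9.30% and 8.26% with DMSO and 6.83% and 9.29% with STM3675 (adjusted p = 0.65), so that its groups overlapped. The other fallers were CNOT2, CNOT6, CNOT7 and PAN2.

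Single sites gave the same picture at finer grain. Of 313 DRACH sites with at least 20 reads in each of the 4 libraries, 233 fell (74.4%) and 0 rose; 0 had a rise at an unadjusted p under 0.05 in this model, and limma on log ratios of A to G reads also gave 0 in both counts. Every one of the 134 DRACH sites that averaged at least 50% with DMSO fell, as did 29030 of the 29059 such sites in the table. Averaged over all 313 sites, the level was 45.6% and 46.8% with DMSO and 10.9% in both libraries with STM3675. Of the 313 sites 58.5% lay in last exons and 33.2% in internal exons, against 66.8% and 27.3% over all genes. GGACT was the commonest motif, with 53 sites whose mean level went from 60.3% to 13.4%, and 48 of them fell (90.6%). It was also the commonest over all genes, where the mean level of its 13458 sites went from 59.3% to 13.4% and 86.8% fell.

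Among sites with at least 50 reads in each of the 4 libraries, and with 1 site per gene, the 10 widest falls lay in last exons. CNOT6, a catalytic deadenylase subunit, had the widest of them, at its lead site, where 93.4% and 98.8% with DMSO became 9.59% and 8.2% with STM3675. DIS3L at chr15:66333412 (ggAct) read 96.5% and 89.2% and then 7.66% and 13.8%. UPF1 at chr19:18867929 (ggAct), a different site from its lead, read 94.7% and 95.7% and then 15.4% and 15.3%. At these 3 sites the 4 libraries held at least 84 reads each and the groups were far apart. The remaining sites of the 10 were in ZCCHC8, RBM7, ZFC3H1, EXOSC2, CNOT8, UPF2 and EXOSC3. At shallower depth the lead site of DIS3, chr13:72759769 in the last exon (minus strand, agAct), fell farther, from 96.3% and 100% to 8.89% and 0.00%, with as few as 23 reads in a library.

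Some sites kept more of their methylation than the rest. Among 68 DRACH sites with at least 50% with DMSO and at least 50 reads in each of the 4 libraries, the median ratio of the treated to the DMSO level was 0.138, and 4 sites (5.88%) kept a ratio of 0.3 or more, against a median of 0.151 and a share of 7.29% over 15668 such sites in all genes. The highest ratio was in exon 3 of UPF2 at chr10:12029231 (minus strand, gaAct), a site with 463 to 768 reads. It read 97.1% and 96.8% with DMSO and 51.4% and 48.9% with STM3675, a ratio of 0.518. The UPF2 lead site, in the same 780-nt exon, read 97.0% and 99.2% and then 35.3% and 40.0%. UPF2 at chr10:11920919 (gaAct), in the last exon, read 100% in both DMSO libraries and 23.2% and 21.1% with the compound, a ratio of 0.221. Exon 3, looked at as a whole after its values were seen, was not uniform. Its site at chr10:12029023 (gaAca) read 97.7% and 100% and then 18.6% and 15.3%, a ratio of 0.172, over 44 to 118 reads. The other sites among the 5 highest ratios were in EXOSC4 (0.383), UPF1 (the lead site, 0.347) and SMG8 (the lead site, 0.293), and all 5 sites fell.

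EXOSC6 stood out as a whole gene and was singled out after its values were seen. It encodes a ring subunit from a single exon of 5163 nt. Its level was 84.8% and 87.2% with DMSO and 34.0% and 36.0% with STM3675 (adjusted p = 2.2e-11), so that 0.407 of it was left. Among the 19 of the 43 genes that started at 50% or more the median ratio was 0.174 and the second highest 0.270; over 3931 such genes in the table the median was 0.176, and 44 genes (1.12%) had a ratio at least as high. All 6 of its tested DRACH sites fell. The highest levels with STM3675 were at 3 sites, shown with their bases.
EXOSC6 chr16:70250829, minus strand: ggAcc
EXOSC6 chr16:70250952, minus strand: ggAct
EXOSC6 chr16:70250963, minus strand: tgAct
None of the 3 had 50 reads in each library, the limit used for the ratios above. The first read 100% in both DMSO libraries and 75% and 68.2% with STM3675, over 20 to 78 reads. The second, the lead site, read 97.9% in both DMSO libraries and 58.3% and 76.9% with the compound, over 39 to 60 reads. The third read 93.8% and 96.9% and then 31.4% and 44.7%, over 47 to 70 reads. A DRACH site beside the first, chr16:70250814, went from 26.8% and 56.3% to 3.23% and 11.4%. Neighbouring sites of this gene thus ended at very different levels. In SMG1, also chosen after its values were seen, the lead site at chr16:18809008 (ggAct) read 98.4% and 96.9% and then 57.1% and 65.9%, over 32 to 62 reads.

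**Figure D3:**
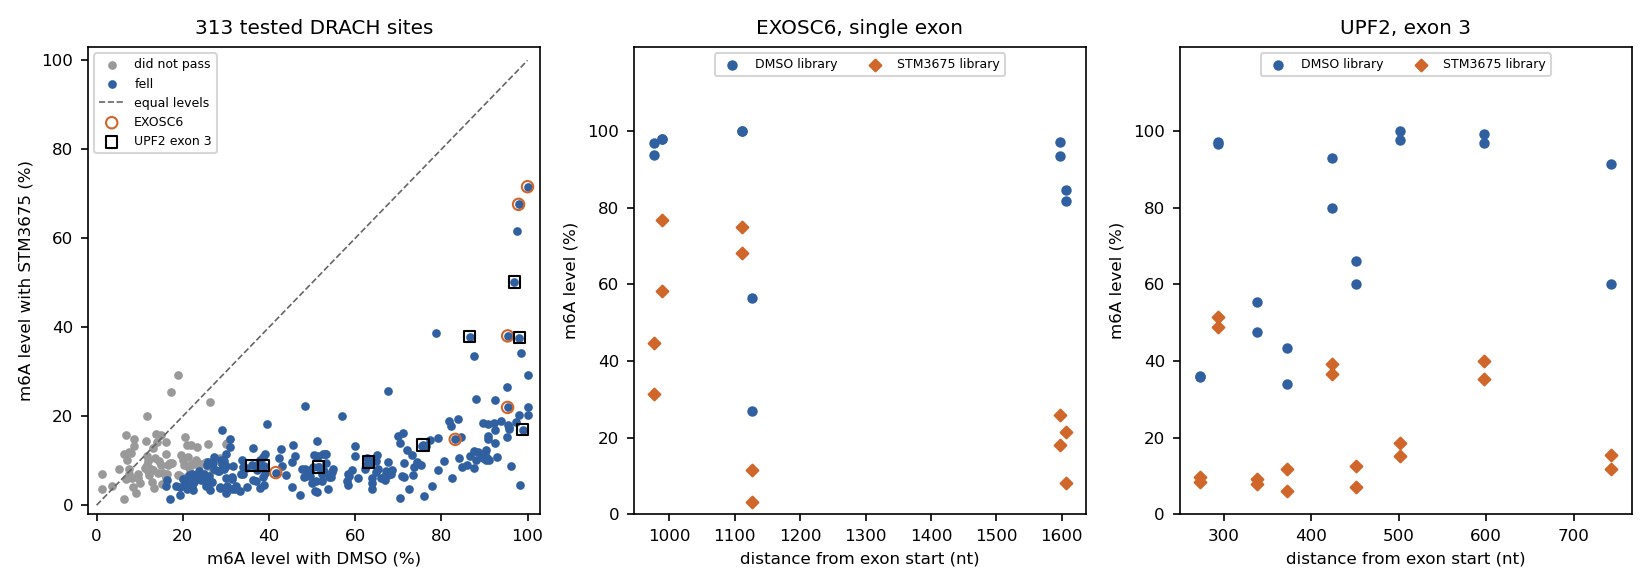
Left, mean m6A level (percent) of 313 DRACH sites in CAOV3 with DMSO (x axis) and STM3675 (y axis), with EXOSC6 circled, UPF2 exon 3 boxed and the dashed line at equal levels. Middle and right, the level in each library (percent) at the DRACH sites of EXOSC6 and of UPF2 exon 3 by distance from the exon's start (nt); 3 EXOSC6 sites and the UPF2 site with 51.4% and 48.9% stay high with STM3675.

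Outside DRACH far fewer sites moved. Of 505 such sites 36 fell (7.13%, against 7.87% of 108883 in the table) and 1 rose, against 0.493% that rose in the table. The 36 included 7 sites of GGATT, 5 of GTACT, 4 of GGACG and smaller numbers in other motifs that differ from DRACH by a base. Of the 23 sites outside DRACH that averaged at least 25% with DMSO, 16 fell (69.6%), against 67.4% of 7937 such sites in the table. The 3 sites shown were chosen after their values were seen, as the clearest cases of strong methylation outside the motif.
ZC3H18 chr16:88631359, plus strand: ggAtt
NCBP3 chr17:3812347, minus strand: ggAtt
SMG8 chr17:59211129, plus strand: gtAct
The ZC3H18 site read 86.8% and 76.4% with DMSO and 5.88% and 14.0% with STM3675. The NCBP3 site read 66.5% and 71.3% and then 4.30% and 8.99%, and the SMG8 site 57.3% and 61.7% and then 6.59% and 6.52%. In none of the 3 did the groups overlap. The single rise was in UPF1 at chr19:18867508 (agAtt), which read 0.00% and 4.84% with DMSO and 22.5% and 13.9% with STM3675 (adjusted p = 0.00067), over 62 to 89 reads.

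Other genes of the same pathways fell about as often as genes at large. In a list of 69 further exosome, NMD, decapping and deadenylation genes, 60 were tested, of which 53 fell (88.3%, against 91.1% of all genes) and 7 did not pass (DIS3L2, SKIC2, SKIC3, DHX34, MAGOHB, PATL1 and PABPC1), with a median difference of -36.2 points. By group, 9 of 12 exosome and Ski genes fell, 10 of 12 NMD and exon junction genes, 13 of 14 decapping and 5'-to-3' decay genes, and 21 of 22 deadenylation genes. BTG2, an antiproliferative protein that binds the deadenylase, went from a mean of 93.7% with DMSO to 11.1%. LSM4, of the ring that binds deadenylated tails, went from 77.9% to 9.90%.

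Across the 6 DMSO lines, 35 of the 43 genes had DRACH sites with at least 20 reads in all 12 libraries, and 21 of them (60%) differed among lines, against 58.4% of 7428 genes. The median range from the lowest to the highest line was 12.6 points, against 12.1 over all genes. CAOV3 was the highest line in 17 of the 21 and OE21 the lowest in 11. Among all tested genes, called or not, CAOV3 was the highest in 25 of the 35 (71.4%), against 53.6% of the 7428 genes. For OE21 as the lowest line the share of all genes is not given here. OE21 is one of the lines with a low background. After each library's background was subtracted and the levels rescaled, 14 genes differed by limma, which is a change of model too. On the adjusted levels CAOV3 was the highest in 13 of the 21 genes above, and OE21 was the lowest in 3 of them. For these adjusted counts no shares of all genes are given here. The subtraction left some adjusted means negative, such as SMG9 in A549 at -8.64%. The part of the unequal background in the other differences was not tested.

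DIS3 separated the lines most clearly among the nucleases. It read 56.4% and 56.1% in CAOV3, 50.3% and 47.1% in COV644, 49.1% and 47.9% in EFO21, 45.2% and 46.6% in SKOV3, 37.2% and 41.5% in A549, and 36.2% and 39.8% in OE21 (adjusted p = 9.7e-05). Without adjustment for background, A549 and OE21 overlapped at the bottom, COV644, EFO21 and SKOV3 lay within a few points in the middle, and CAOV3 was above all others. After the background adjustment the DIS3 means were 50.8% in CAOV3, 46.4% in COV644, 41.2% in EFO21, 37.9% in SKOV3, 35.2% in OE21 and 32.1% in A549. ZFC3H1 read 67.9% and 72.5% in CAOV3, 59.5% and 62.2% in A549 and between 48.9% and 57.5% in the other 8 libraries, where the lines overlapped. CNOT6 read 43.2% and 47.1% in CAOV3 and 26.9% and 27.4% in OE21, with the other lines between 31.1% and 37.8%. After adjustment its mean was 38.3% in CAOV3, and EFO21 was lowest at 23.0%, near OE21 at 23.8% and SKOV3 at 25.1%. UPF2 had a single low line: it read 46.0% and 48.0% in OE21 and 57.3% to 64.9% in the other 10 libraries (adjusted p = 0.00052), and its difference of OE21 from the other lines also passed after the background adjustment (adjusted p = 0.016). DCP1A had the widest range, 23.2 points, but its replicates were far apart, at 30.4% and 44.0% in CAOV3 and 5.56% and 22.4% in EFO21.

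**Figure D4:**
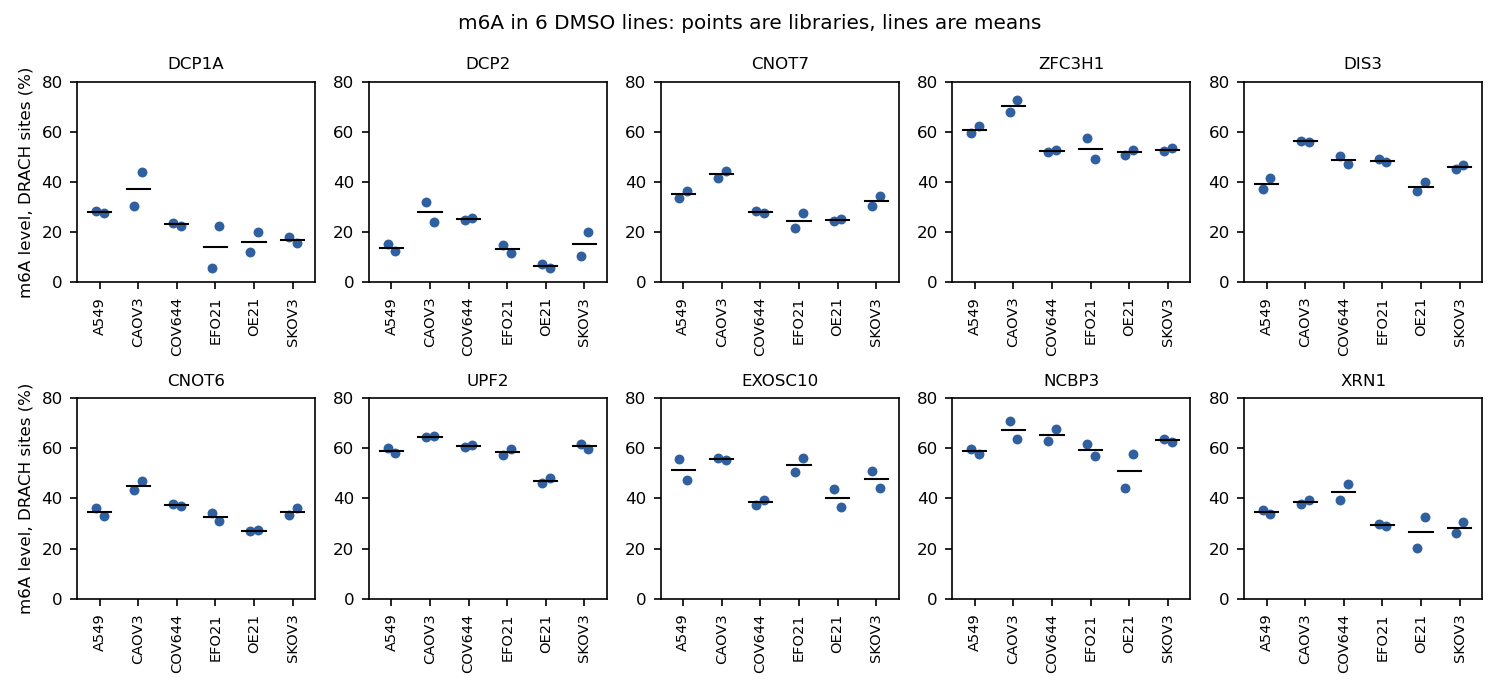
The m6A level over DRACH sites (percent, y axis) in the 6 DMSO lines (x axis) for the 10 genes with the widest range among the 21 that differed between lines, without adjustment for background; points are libraries and bars their means. CAOV3 is highest in 9 of the 10 and COV644 in XRN1, and UPF2 is low in OE21.

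Each line was also set against the mean of the other 5. In CAOV3, 19 of the 35 genes were higher and 0 lower by the quasi-binomial model (0 lower at an unadjusted p under 0.05, and 0 by limma), where 43.1% of all genes were higher and 0.727% lower; 11 of the 19 passed after the background adjustment too (CNOT2, CNOT6, CNOT7, DCP1A, DCP2, DIS3, EXOSC6, NCBP2, SMG8, UPF2 and ZFC3H1). In OE21, 13 were lower and 0 higher (0 also unadjusted and by limma), where 29.3% of all genes were lower and 1.7% higher, and after adjustment UPF2 was the single gene still called. The adjusted levels were tested by limma, so that the model changed along with the background. All shares of all genes in this paragraph come from the quasi-binomial model without adjustment. Without that adjustment, limma on log ratios of A to G reads called 9 genes lower in OE21 and 15 higher in CAOV3. COV644 had 2 genes higher, PAN3 and XRN1, which both passed after adjustment, and 1 lower, where 10.9% and 7.22% of all genes were; after adjustment 7 genes were higher there. In EFO21, 2 were higher and 3 lower (4.19% and 6.25% of all genes), with CNOT1 and CNOT7 lower after adjustment too. In SKOV3, 2 were lower, CNOT2 and NCBP2, which also passed after adjustment, and 0 higher (1 at an unadjusted p under 0.05, 0 by limma), where 7.34% and 2.1% of all genes were. In A549, 3 were lower, of which 0 passed after adjustment (5 genes did at an unadjusted p under 0.05 by limma), and 0 higher (3 unadjusted, 0 by limma), where 5.94% and 5.06% of all genes were. These contrasts share libraries and are not independent of each other.

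Of 213 member DRACH sites tested across the lines 70 differed (32.9%, against 39.1% of 38621). This count depends on the model: limma on log ratios of A to G reads called 0 of the 213, with 52 at an unadjusted p under 0.05, and so none of the sites named next passed by limma. The range was widest at chr12:56319330 in exon 23 of PAN2 (minus strand, ggAct), with 66.7% and 56.5% in CAOV3 and 16.4% and 26.3% in A549. The other lines lay from 30.9% to 50.0% there, over 20 to 76 reads. At chr13:72759645 in the last exon of DIS3 (minus strand, tgAct), with 129 to 477 reads, CAOV3 read 76.7% and 70.1% and A549 45.1% and 44.3%, with a range over lines of 28.7 points (adjusted p = 8.8e-09). The reverse order occurred at chr13:28293643 in the last exon of PAN3 (plus strand, taAct), which read 52.1% and 53.7% in EFO21 and 32.8% and 14.5% in CAOV3, with every library of the other lines below 40%. Of the 35 lead sites 12 differed among lines, so that the remaining 23, among them those of EXOSC2, did not pass.

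Coverage of these transcripts also changed with STM3675, more often downward. Coverage was summed per gene over all listed sites and scaled to CPM; a read is counted at each listed site it spans, and in bulk RNA a smaller share of expressing cells and less RNA per cell cannot be told apart. All 43 genes were tested by edgeR's quasi-likelihood test: 8 were higher (18.6%, against 27% of 12826 genes), 18 lower (41.9%, against 25.7%) and 17 did not pass. Their median log2 change was -0.20, against -0.01 over all genes. With any single CAOV3 library left out, EXOSC4, SMG8 and ZCCHC8 were called higher each time and CNOT7, DIS3, EDC4, EXOSC6, MTREX, NCBP1 and PAN2 lower each time. The calls depend more on how sites are combined: with the median over a gene's sites in place of the sum, edgeR called EXOSC3, EXOSC4 and SMG8 higher and 0 genes lower, with 5 lower at an unadjusted p under 0.05.

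SMG8 rose most, from 119 and 115 CPM with DMSO to 210 and 218 with STM3675 (log2 change 0.87, SE 0.04, edgeR adjusted p = 7.3e-06). EXOSC4 rose from 136 and 113 to 201 and 195 (log2 change 0.67, SE 0.14), and ZCCHC8 from 99.4 and 107 to 146 and 145 (log2 change 0.50, SE 0.05). In all 3, which were named for their large changes, the groups did not overlap. By the median over sites ZCCHC8 did not pass (edgeR adjusted p = 0.22). The smaller rises were in SMG6, DIS3L, EXOSC3, UPF2 and NCBP2, at log2 changes of 0.42 to 0.27; those of SMG6 and DIS3L did not pass without the first STM3675 library (adjusted p = 0.057 and 0.063).

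EXOSC6, the gene singled out above for its retained m6A, had the lowest log2 change in summed coverage, from 37.3 and 36.4 to 18.2 and 20.0 CPM (-0.95, SE 0.07, adjusted p = 6.0e-05 by edgeR). By the median over its sites the change was -0.41 (adjusted p = 0.52), smaller than in PAN2 (-0.88, adjusted p = 0.15), MTREX (-0.81, adjusted p = 0.069) or NCBP1 (-0.64, adjusted p = 0.15), none of which passed that way either. PAN2 fell from 46.9 and 44.4 to 25.7 and 24.2 (log2 change -0.87, SE 0.06), and NCBP1 from 40.8 and 48.3 to 29.1 and 27.9 (log2 change -0.64). EDC4 fell from 66.2 and 67.1 to 47.3 and 47.0. The groups did not overlap in any of these 4, but the genes were named for their large changes, so that this adds no support. Some genes that did not pass, such as UPF1, had no overlap either. MTREX fell from 35.1 and 28.5 to 19.4 and 19.9 (log2 change -0.69), but its last-exon sites alone gave a log2 change of 0.15 (adjusted p = 0.81), a split chosen after seeing the data. By role, the counts of higher and lower genes were 2 and 3 in the exosome core, 1 and 2 in its nucleases, 1 and 1 in the adaptors, 1 and 4 in cap binding, and 3 and 2 in NMD; the decapping and the deadenylation genes had 3 lower genes each. With 1 to 4 genes in each count, these are descriptions beside the 27% higher and 25.7% lower of all genes. Among the 69 further pathway genes 11 were higher (15.9%, against 27% of all genes) and 21 lower (30.4%, against 25.7%), with a median log2 change of -0.18; PELO, the ribosome rescue factor, rose by a log2 change of 1.15. The m6A and coverage comparisons use the same reads, and so no relation between them was tested.

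**Figure D5:**
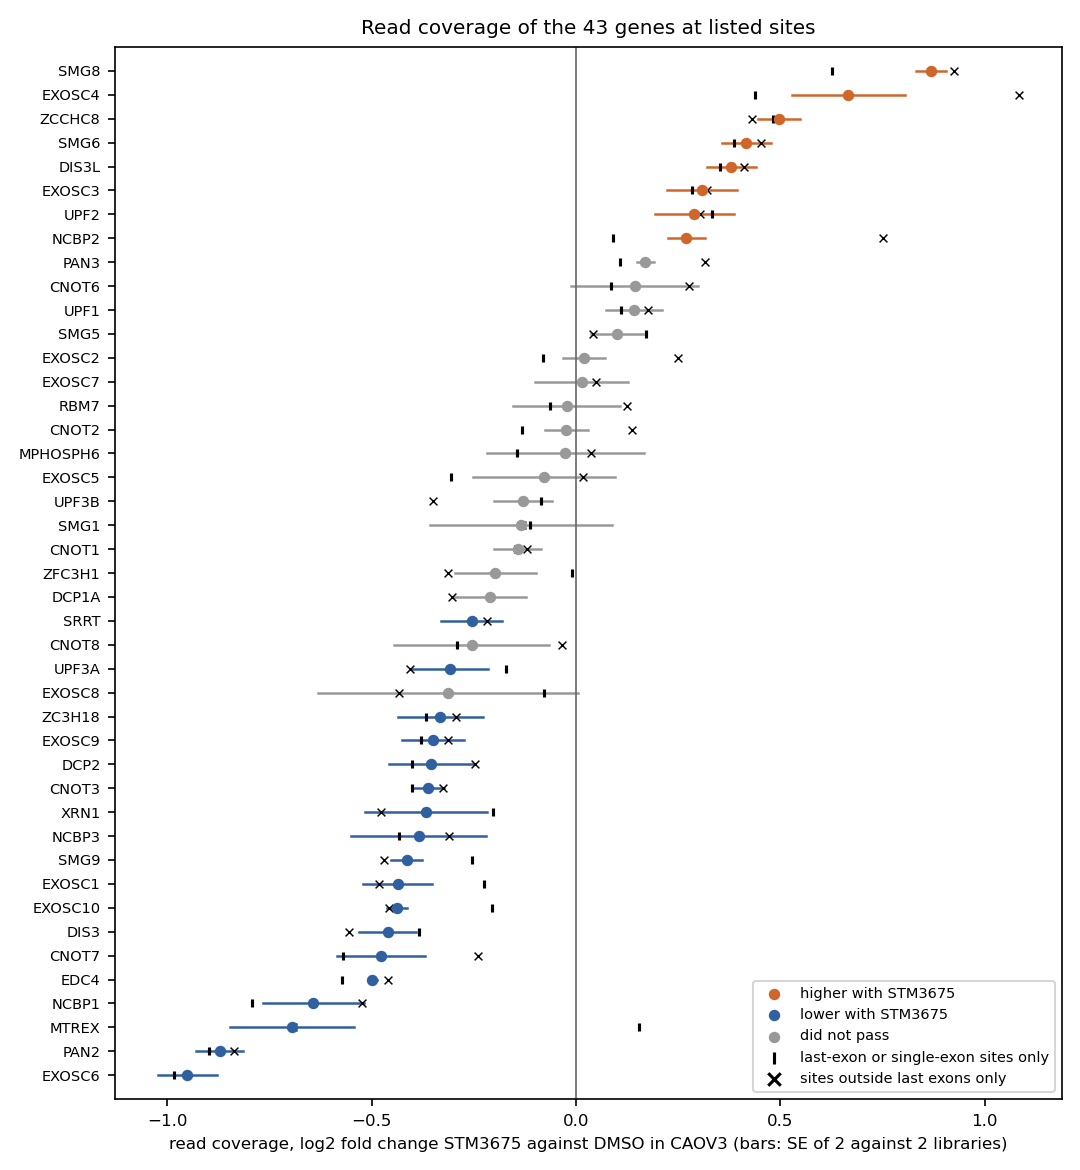
Log2 change of coverage with STM3675 in CAOV3 (x axis) for the 43 genes, with bars for the SE of 2 against 2 libraries; ticks give the change over last-exon or single-exon sites and crosses that over sites outside last exons. SMG8, EXOSC4 and ZCCHC8 lie highest and EXOSC6 and PAN2 lowest, and the tick of MTREX lies across 0 from its point.

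Between lines, coverage of 42 of the 43 genes differed (99.1% of 13704 genes did); EXOSC8 did not pass (adjusted p = 0.24 by edgeR). The median log2 range from the lowest to the highest line was 1.50, against 2.15 over all genes, and the median fold between those lines was 2.83. CNOT2 was the widest, at 484 and 532 CPM in COV644 against 46.2 to 140 in the other 10 libraries, with CAOV3 lowest and 10.6-fold below COV644. EXOSC5 was highest in A549 (mean 101.6) and lowest in SKOV3 (10.5), 9.67-fold apart. UPF3B, the exon junction partner of UPF2, was at a mean of 33.5 in CAOV3 and 4.55 in OE21, and UPF2 itself at 227 in CAOV3 and 47.2 in OE21. PAN2 was lowest in CAOV3, at 44.4, and highest in EFO21, at 279. XRN1 was at 187 in EFO21 and 35.3 in OE21, with A549 at 61.4 and the other lines from 144 to 150, which lay within each other's spread. Over the 43 genes OE21 was the lowest line in 14, among them UPF2, UPF3B, XRN1 and RBM7, and the highest in 10, among them EXOSC6, at a mean of 127, and EXOSC1.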

How the data were processed

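GLORI libraries were made from polyadenylated RNA of 14 samples, with cutadapt, STAR and GRCh38 named in the submitters' processing notes. The authors deposited, per adenosine and library, the fraction of A reads and the counts of A and of all A plus G reads; counts were whole within 1e-06. A read total reached at most 10040 at a site. Every site listed had a fraction of at least 0.25 and at least 20 reads in at least 1 DMSO library, which favours falls. Genes and lists were chosen with earlier results of these data known.

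A and G counts were fitted per site and per gene with a quasi-binomial model whose dispersion was moderated by squeezeVar in limma 3.58.1 (R 4.3.3), and site coverage summed per gene with edgeR 4.0.16 (TMM, quasi-likelihood), always over the whole table with Benjamini-Hochberg adjustment at 0.05. Sites needed 20 reads in every library of a comparison. Named genes were the 2 with the widest and the 2 with the smallest fall in each role and those that did not pass; named sites had, 1 per gene and with 50 reads, the 10 widest falls, and the 5 highest ratios. For lines the genes and sites came from the 10 widest ranges, and for coverage from the 5 largest changes in each direction. Alternatives changed the minimum to 10 or 50 reads, the model (limma, DESeq2 1.42.0), the scaling, the site set, the replicate block and each library left out. In simulated data at 2 against 2 libraries the site model recovered 42% of 100 sites changed to 0.25 of their level. Of 100 sites changed to 0.5 it recovered 13%. These were the only changed sites among 185923, and they started from levels pooled over DMSO and STM3675 libraries. In the real data far more sites changed, so that these shares do not give the sensitivity there. Spike-ins were not analysed here.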

Additional observations from a re-analysis of the deposited data

How the results depend on the processing

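In CAOV3 with STM3675, 233 DRACH sites fell; the count was 149 with the replicate block and 123 of 132 at a minimum of 50 reads, 192 by limma, and 157 to 199 with a library left out. The 36 genes that fell were 33 to 36 with a library left out and 34 by limma, and 31 of 38 genes kept their call throughout. Reversed were SRRT over all sites (-1.11 points, adjusted p = 0.34), CNOT3 at 50 reads (3.58, adjusted p = 0.096) and without STM3675 replicate 1 (0.51, adjusted p = 0.83; lowest -1.95 with another library left out), and MTREX coverage over last-exon sites (0.15). Among lines, 70 sites differed; the count was 0 by limma (52 at an unadjusted p under 0.05), 41 at 50 reads, 26 among the high-background lines alone, 4 between the low-background lines, and 11 after background adjustment with limma, and 47 to 78 with a library left out, where the lone library of a group is assumed to vary like the others. The 21 genes that differed became 32 over all sites, 7 between the low-background lines and 17 to 23 with a library left out, and of the 45 calls of a line against the others 18 were kept after adjustment, among 25 calls made then. For coverage, 26 changes (8 higher, 18 lower) became 3 (3 higher, 0 lower, 5 lower at an unadjusted p under 0.05) by edgeR on the median over sites, and 13 (7 lower) over last-exon sites, a split chosen after seeing the data. With a library left out they were 13 to 31 (3 to 11 higher, 8 to 22 lower). Replicate numbers did not pair the CAOV3 libraries (correlation of deviations 0.000631 over sites and -0.0339 over genes), and the block moved no other count by over 1.5 times. Between lines some correlations were larger: COV644 and OE21 had 0.22 over genes and 0.344 in coverage, and OE21 and SKOV3 had -0.169 and -0.327. At the median depth of 28 to 53.5 reads, small differences at single sites were not detectable.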
